A study of Homo sapiens with 4 samples.

Results

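The cytosolic ribosomal protein genes were described across the 4 expression arrays of LNCaP and PC3 prostate cancer cells. Members were chosen by name alone. They were the gene probes whose gene name on the array design was RPLP0, RPLP1, RPLP2, RPSA, or RPL or RPS followed by a number, with A allowed after either and X after RPS, so that mitochondrial ribosomal proteins, pseudogenes and paralogs with an added L were left out. This gave 77 of 27224 gene names, 31 of the small and 46 of the large ribosomal subunit. No measured value entered the naming rule, but the members were chosen with earlier results of these data known. Each gene was read from its brightest probe, and all 77 members were well above background on all 4 arrays.

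Gene expression had been measured on 1-colour arrays to compare cells exposed to atorvastatin (ATO), a statin that blocks HMG-CoA reductase in the mevalonate pathway, with control cells. LNCaP is a cell line from a lymph node metastasis that responds to androgen, and PC3 is a cell line from a bone metastasis that does not. Each line gave a control and an ATO group, and each of the 4 groups was measured on 1 array. Both lines were grown in RPMI medium with serum, and the ATO groups received 10 µM ATO for 24 h before RNA was isolated, whereas the controls are labelled untreated, with no vehicle named. KLK3 and KLK2, markers of LNCaP, were not well above background on the PC3 arrays, and CAV1 and CD44, markers of PC3, were not well above background on the LNCaP arrays, so the lines carried the markers their labels call for. There were no replicates within a group, and the arrays lay on 1 slide, where array position cannot be told apart from group.

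Ribosomes translate every mRNA of the cell. The small subunit reads the mRNA and the large subunit joins amino acids, and each is built in the nucleolus from ribosomal RNA and a set of proteins that are made in matched amounts. Ribosomal protein mRNAs are among the most abundant of a dividing cell. They belong to the TOP mRNAs, which begin with a C at the cap followed by a run of pyrimidines (C or T), a 5′ terminal oligopyrimidine tract through which the kinase mTOR and the RNA-binding protein LARP1 set their translation and stability. A microarray measures the amount of mRNA and not its translation.

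The pyrimidine tract was looked for in the RefSeq sequence (GRCh38.p14) around the annotated start of each gene, where 62 of the 77 members had an entry that ran from 250 bases before the start to 50 after it. A C at the start followed by 4 or more pyrimidines was present in 46 of the 62 (74.2%), in 6.24% of 15843 protein-coding genes and in 9.38% of the 64 mitochondrial ribosomal protein genes with an entry. A looser search, for 7 or more pyrimidines that begin with a C within 5 bases of the start, found 49 of the 62 (79.0%), against 10.8% of all genes. The windows below run from 20 bases before the start to 20 after it and are shown, among the members whose window was taken, for those with the lowest (RPS3A, RPL26, RPL27) and the highest (RPL22, RPS24) signal in PC3 relative to LNCaP, and for members with a particular role (RPS6, RPLP0, RPLP2, RPL41). Capitals mark the run of pyrimidines, from its first C, that lies nearest to the start.
RPS3A: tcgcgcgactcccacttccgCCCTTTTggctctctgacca
RPL26: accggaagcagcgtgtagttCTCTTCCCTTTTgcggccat
RPL27: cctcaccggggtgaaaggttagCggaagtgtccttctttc
RPL22: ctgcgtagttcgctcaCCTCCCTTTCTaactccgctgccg
RPS24: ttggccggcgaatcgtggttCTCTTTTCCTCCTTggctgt
RPS6: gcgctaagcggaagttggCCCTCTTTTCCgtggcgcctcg
RPLP0: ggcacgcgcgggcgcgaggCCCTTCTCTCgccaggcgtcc
RPLP2: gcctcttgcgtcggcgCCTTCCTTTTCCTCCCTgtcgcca
RPL41: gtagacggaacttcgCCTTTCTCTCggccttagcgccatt

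On GRCh38.p14 these windows lie at chr4:151099608-151099647 on the plus strand (RPS3A), chr17:8383174-8383213 on the minus strand (RPL26), chr17:42998399-42998438 on the plus strand (RPL27), chr1:6199576-6199615 on the minus strand (RPL22) and chr10:78033843-78033882 on the plus strand (RPS24). RPS6 lies at chr9:19380217-19380256 on the minus strand, RPLP0 at chr12:120201092-120201131 on the minus strand, RPLP2 at chr11:809947-809986 on the plus strand and RPL41 at chr12:56116613-56116652 on the plus strand. The tract began at the first base of the transcript in RPS3A, RPL26 and RPS24, and up to 5 bases before the annotated start in RPL22, RPS6, RPLP0, RPLP2 and RPL41. It ranged from 7 bases in RPS3A to 17 in RPLP2. RPL27 had no run of pyrimidines at its annotated start, although a run lies farther into its window. Members that were lower in PC3 and members that were higher both carried a tract. Other short motifs, searched on both strands of the same sequences, were present at shares that differed less from all genes. GGGCGG, the GC box, was present in 58.1% of members and 64.3% of all genes. CCGGAAG, a core motif of ETS factors whose reverse complement CTTCCGG can overlap the pyrimidine tract, was present in 35.5% of members and 16.5% of all genes. TATAAA was present in 8.06% and 12.4%, and AAGATGG, the core motif of YY1, in 12.9% and 7.9%.

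Ribosomal protein probes were among the brightest of every array. Between 73 and 74 of the 77 chosen probes were among the 500 brightest gene probes of an array, and the median member read 84197 and 91571 intensity units in LNCaP (control, then ATO) and 63125 and 60633 units in PC3. The 75th percentile of all gene probes, to which every array was scaled, was 496.8, 532.6, 588.2 and 568.9 units in the same order. Because spots this bright exceed the range of the normal scan, 72 of the 77 members were read from the scanner's low-gain scan on all 4 arrays, a reading used for only 1.36% to 1.44% of gene spots. RPLP0, RPL41 and RPS27 gave the strongest signals, and RPL22, RPS27A and RPL27A, which were not read from the low-gain scan on any array, the weakest. Signals of different probes do not give the relative amounts of the genes. No gene spot was saturated. The scanner's error model gave 10.0% per spot as the median error of the members, which corresponds to a standard error of 0.204 for a log2 ratio of 2 arrays. Copies of 1 probe on an array, over all genes well above background, had a median SD of 0.094 on the log2 scale. Of the chosen probes, those of RPS6 and RPL30 were printed with 10 copies, and their unflagged copies had SDs between 0.027 and 0.132. The other 75 members rested on 1 spot per array.

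**Figure D1:**
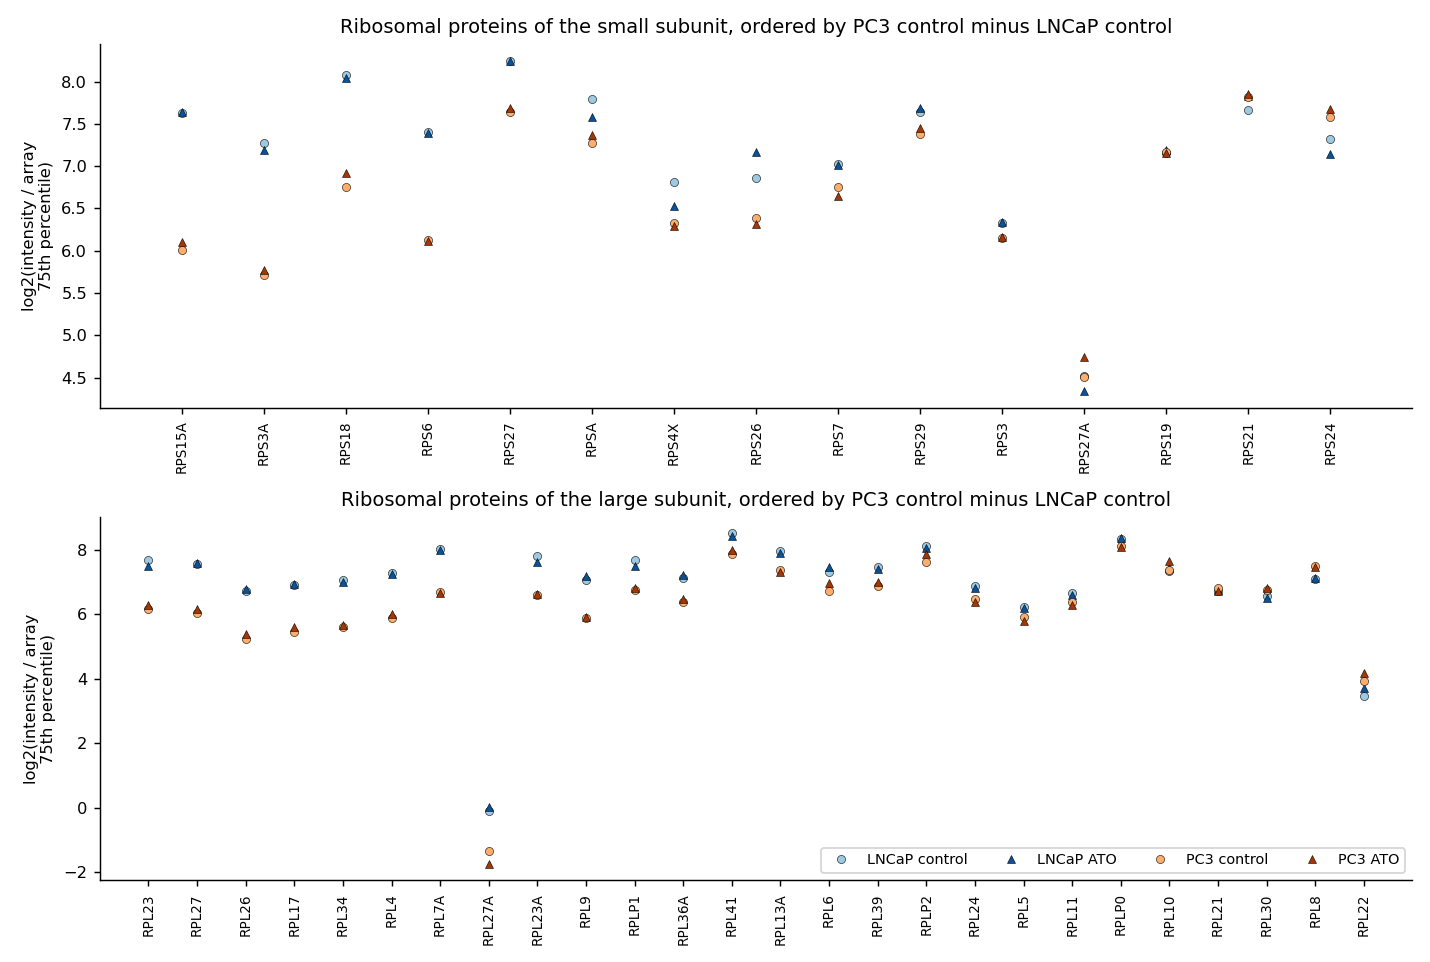
Level on each array of 41 members described in the text, as log2 of the intensity over the array's 75th percentile, for the small (top) and large (bottom) subunit; circles are control arrays, triangles ATO arrays, blue LNCaP and orange PC3, with 1 array per group and no error bars. Circles and triangles of a line nearly coincide, and PC3 lies below LNCaP for most members, from RPS15A and RPL23 at the left, to RPS24 and RPL22 at the right, where PC3 lies above.

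After ATO the mRNA of the ribosomal proteins read nearly the same as in the control array of either line. In LNCaP, 0 of 77 members were 1.5-fold higher and 0 were 1.5-fold lower, where 2.77% and 1.99% of the 13739 genes that could be compared were. In PC3, 0 members were higher and 0 lower, where 8.2% and 10.3% of 13815 genes were. The median log2 ratio of the members was -0.0065 in LNCaP, with 36 above and 41 below 0, and 0.047 in PC3, with 48 above and 29 below 0. Medians this small had no fixed sign, and with spike-in scaling they were 0.15 in LNCaP and -0.041 in PC3. The members also lay close together: the SD of the log2 ratio was 0.095 over the members and 0.417 over all genes in LNCaP, and 0.112 and 0.521 in PC3. In LNCaP 63 of the 77 members, and in PC3 53, lay within 0.1 of no difference on the log2 scale. No member (0 in LNCaP and 0 in PC3) differed by more than 2 standard errors of the error model. The median standard error, 0.204, exceeded the SD over the members in either line and the median SD between probe copies, 0.094. Few ratios could pass such a limit, so this count says little about single members. All genes include many dim probes with more noise, and other genes of like brightness were not compared.

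**Figure D2:**
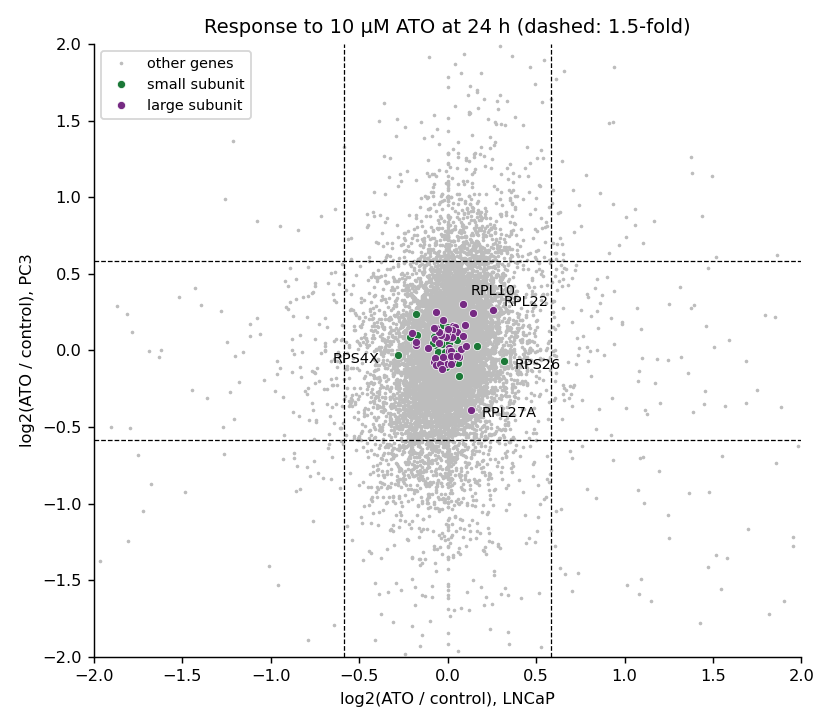
Response to 10 µM ATO at 24 h as log2(ATO / control) in LNCaP (horizontal) and PC3 (vertical), each point 1 gene and each ratio 2 arrays; members are green (small subunit) and purple (large subunit), 11829 other genes are grey and 85 lie beyond the axes. All 77 members lie inside the dashed 1.5-fold lines in both directions.

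The small subunit gave 0 calls in either direction in both lines, with medians of -0.014 in LNCaP and 0.039 in PC3. RPS6, the target of the S6 kinases that act downstream of mTOR, read 84439 and 89689 units in LNCaP (control, then ATO) and 41228 and 39583 units in PC3. After scaling, its log2 ratios were -0.014 and -0.011, from the unflagged copies of a probe printed 10 times. RPS3, which lines the mRNA entry channel, read 39968, 43154, 41842 and 40667 units in the same order, and its ratios were 0.010 and 0.0071. RPS27 read 150607, 162298, 117505 and 117553 units, with ratios of 0.0073 and 0.049. RPS19, a protein whose loss causes Diamond-Blackfan anaemia, read 71138, 78086, 84960 and 81255 units, with ratios of 0.034 and -0.016. For these members the ratios in both lines were smaller than 1 standard error of the error model.

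The members of the small subunit farthest from 0 were not the same in the lines. RPSA, which was first known as the laminin receptor, read 110597 and 102180 units in LNCaP (control, then ATO) and 91245 and 93785 units in PC3, with log2 ratios of -0.21 and 0.088. The other RPSA probes gave -0.044, -0.18 and -0.049 in LNCaP. RPS4X, encoded on the X chromosome, was the lowest member in LNCaP at -0.28 (55990 and 49333 units) and was at -0.033 in PC3 (47238 and 44651 units). RPS26, which contacts mRNA at the exit channel, was the highest in LNCaP at 0.32 (57506 and 76829 units) and at -0.072 in PC3 (49138 and 45215 units). The RPS26 value was carried by 1 probe: its other probes gave -0.25 and -0.087 in LNCaP. RPS27A, made as a fusion with ubiquitin, was at -0.18 in LNCaP (11400 and 10781 units) and 0.24 in PC3 (13407 and 15290 units). RPS21 was at 0.16 in LNCaP, and RPS7 at -0.11 in PC3.

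The large subunit also gave 0 calls in either direction in both lines, with medians of 0.0040 in LNCaP and 0.052 in PC3. RPL5 and RPL11, which bind the smallest ribosomal RNA and can also hold back the p53 inhibitor MDM2, were close to 0 in LNCaP by their chosen probes. RPL5 read 37096 and 38825 units in LNCaP (control, then ATO) and 35482 and 31586 units in PC3, with log2 ratios of -0.035 and -0.12. A dimmer RPL5 probe gave -0.49 in LNCaP and -0.33 in PC3, and the remaining RPL5 probe gave -0.034 and -0.12. RPL11 read 50707, 51481, 49037 and 45072 units, with ratios of -0.079 and -0.073. RPL13A, which can leave the ribosome to silence inflammatory mRNAs, read 125568, 128170, 98127 and 91799 units, with ratios of -0.071 and -0.048. For these members, by the chosen probes, the difference between lines was as large as or larger than the difference with ATO.

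RPL10, which is added late in assembly and lets the subunits join, was the highest member in PC3 at 0.30 (97357 and 116005 units) and was at 0.089 in LNCaP (80648 and 91963 units). Its 2 other measured probes gave 0.079 and 0.099 in PC3. RPL22, a member that cells can lose without losing translation, was above 0 in both lines, at 0.25 in LNCaP (5483 and 7011 units) and 0.27 in PC3 (8926 and 10373 units), but its other probe was below 0 in both, at -0.094 and -0.14. RPL6 was at 0.14 and 0.25, and at -0.027 and 0.042 by its other probe. RPL23 and RPL23A were among the lowest in LNCaP, at -0.20 and -0.18, and were at 0.11 and 0.038 in PC3. In LNCaP, 1 probe carried each of these values: the other RPL23 probe was at 0.010 and the other RPL23A probes were between -0.0036 and 0.11. RPL24 was at -0.096 in PC3. RPL39 and RPL41, very short proteins of the large subunit, were at -0.037 and -0.076 in LNCaP and 0.099 and 0.15 in PC3. RPL27A was the lowest member in PC3 at -0.39 and was at 0.13 in LNCaP. It was the dimmest member by far, with 1 probe that read 463 and 543 units in LNCaP (control, then ATO) and 230 and 170 units in PC3, and its PC3 ratio was the one farthest from 0 of all members in either line.

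The stalk of the large subunit, which recruits the elongation factors, is made of RPLP0, RPLP1 and RPLP2. RPLP0, often used as a reference gene, had the highest mean log2 signal of the members and read 160207 and 178323 units in LNCaP (control, then ATO) and 165798 and 156090 units in PC3. Its log2 ratios were 0.054 and -0.039, and those of its other probe -0.040 and 0.054. RPLP1 read 102102, 96598, 63753 and 63968 units, with ratios of -0.18 and 0.053. RPLP2 read 138902, 142384, 117069 and 134966 units, with ratios of -0.065 and 0.25. By the chosen probes the stalk genes showed no shared direction within a line. With the other RPLP0 probe, which was printed 10 times, all of them were below 0 in LNCaP and above 0 in PC3. Whether they moved together was therefore not settled.

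The small ratios showed no shared order between the lines. Of the 77 members, 22 were above 0 in both lines, 15 below 0 in both and 40 of opposite sign. Across the members Pearson's coefficient between the LNCaP and PC3 ratios was -0.061 and Spearman's was -0.044. These describe 77 genes measured on the same 4 arrays and are not independent replicates. Over both lines, limma, with cell line as a block and 1 residual degree of freedom, found 0 of 77 members at an adjusted p of 0.05 in either direction, and 0.0% higher and 0.0% lower of all 11902 genes tested. The smallest adjusted p of a member was 0.762, and 0 members were under 0.05 before adjustment, against 532 of the 11902 genes. As no gene passed adjustment, the fit does not set the members apart from other genes. Its p-values measure how alike the responses of the lines were, and not the spread between cultures. RPL22 had the smallest unadjusted p of the members, 0.121. Of the 71 other measured probes of the members in PC3, 1 was 1.5-fold higher and 0 were lower, and in LNCaP 0 of 73 passed in either direction. The 1 probe was a dim probe of RPS29, at 201 units in PC3 control and 305 in PC3 ATO with a log2 ratio of 0.65, while the other 3 probes of RPS29 were between -0.017 and 0.084.

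Genes that build ribosomes were more often lower after ATO in PC3 than all genes were. Of 77 ribosome biogenesis factors with a value in PC3, 23 were 1.5-fold lower and 0 higher (29.9% lower, against 10.3% of all genes), and the median was -0.47. NOLC1, a nucleolar phosphoprotein, was the lowest, at 1575 units in PC3 control and 721 in PC3 ATO (log2 ratio -1.08), and was at -0.11 in LNCaP. DKC1, the pseudouridine synthase of ribosomal RNA, was at -0.88 and NOP56, a core protein of the methylation guides, at -0.81 in PC3, and they were at -0.11 and -0.081 in LNCaP. SURF6 was the highest factor in PC3 at 0.42. In LNCaP, 1 factor was higher (NOC4L, 1.68) and 2 were lower, WDR43 the lowest at -1.48, with a median of -0.079. Of the 20 subunits and factors of RNA polymerase I, which transcribes ribosomal RNA, 4 were lower in PC3 and 0 higher, with a median of -0.24 and POLR1E lowest at -1.59. In LNCaP 0 were higher and 0 lower, with TAF1A at -0.47 and RRN3 at 0.38. NOLC1, WDR43 and POLR1E lay low on the array where the local background was bright, and the part of this in their values was not tested. Of the 23 lower biogenesis factors, 8 lay in such backgrounds. The median of the biogenesis factors in PC3 stayed below 0 under the 6 scalings, between -0.56 and -0.28, with 11 to 35 of the 77 lower.

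Mitochondrial ribosomal proteins, the genes most like the members in name and role, gave 0 calls in either direction in both lines. Their medians over 73 genes were -0.046 in LNCaP and -0.14 in PC3, and in PC3 19 were above and 54 below 0. Their lowest and highest genes were MRPL14 (-0.52) and MRPL18 (0.35) in PC3 and MRPS34 (-0.29) and MRPS28 (0.42) in LNCaP. The 39 initiation factors with a value likewise gave 0 calls in either line, with a median of -0.14 in PC3, and ranged there from EIF2B3 (-0.49) to EIF1 (0.53). In LNCaP they ranged from EIF3J (-0.28) to EIF2S2 (0.17). Of 13 elongation and release factors, EEF2K, the kinase that inactivates EEF2, was called lower in LNCaP (-2.36, from 308 to 64 units) and EIF5A2 in PC3 (-0.99). The highest were ETF1 (0.41) in LNCaP and EEF2K (0.29) in PC3. FAU and GNB2L1, ribosomal proteins under other names, were between -0.059 and 0.098 in both lines.

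**Figure D3:**
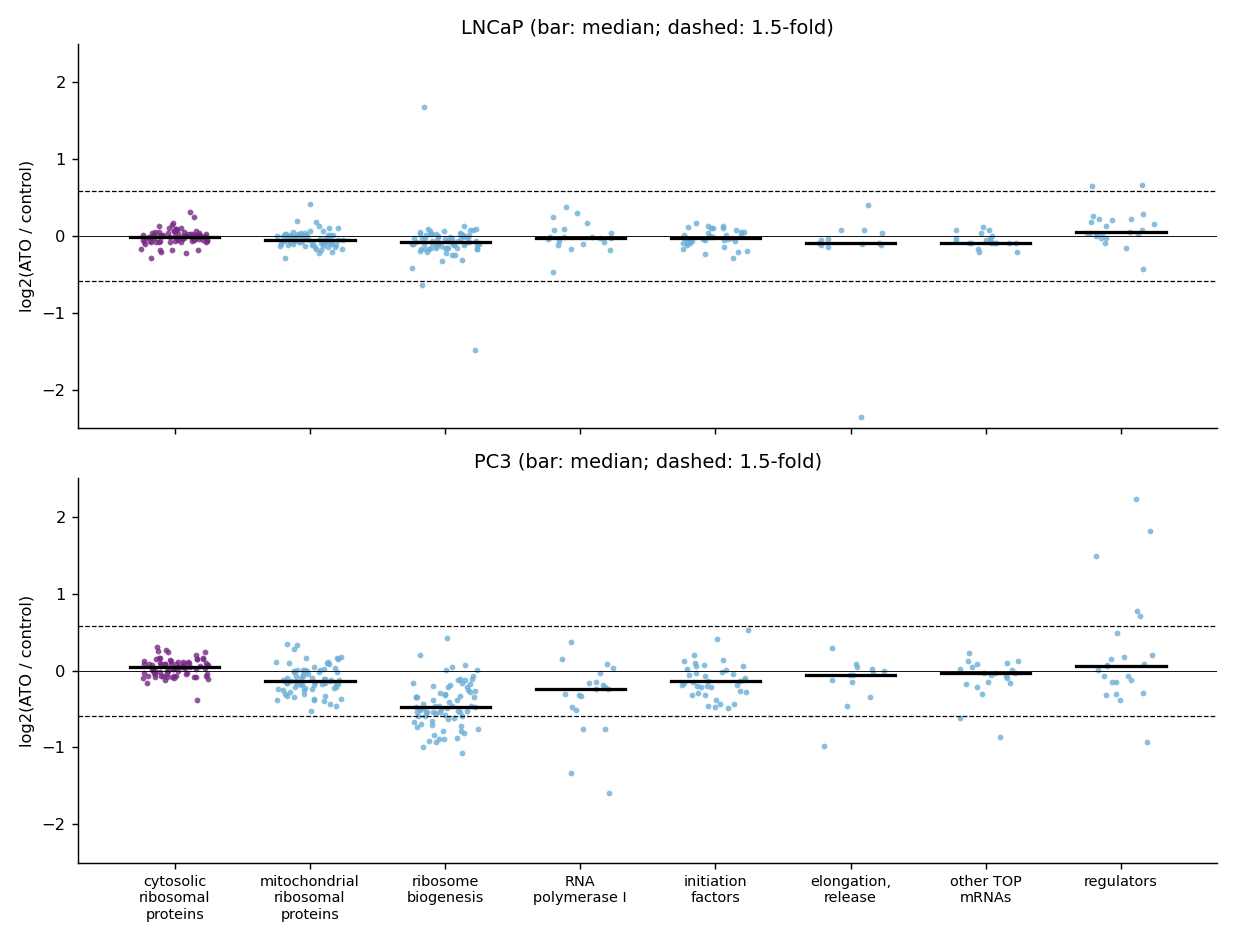
log2(ATO / control) of the genes of each list in LNCaP (top) and PC3 (bottom), each point 1 gene, with the median of the list as a bar and 1.5-fold as dashed lines; 1 value lies beyond the axes. The members (purple) stay near 0 in both lines, whereas ribosome biogenesis factors have a median of -0.47 in PC3 and -0.079 in LNCaP.

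Other TOP mRNAs had a median of -0.087 in LNCaP and -0.031 in PC3 over 21 genes. In PC3, 0 were higher and 2 lower, with SNHG1, a host gene of small nucleolar RNAs, lowest at -0.87 and TPT1 highest at 0.22. In LNCaP EIF3H was the highest at 0.12 and 1 gene was called lower: NAP1L1 read 3222 units without ATO and was not well above background with it, a log2 ratio of at most -5.98. Of 23 regulators of ribosomal protein synthesis, 5 were higher and 1 lower in PC3 (21.7% and 4.35%, against 8.2% and 10.3% of all genes), and 2 were higher and 0 lower in LNCaP (8.7% higher, against 2.77%). MYC, a transcription factor that drives ribosome genes, read 5057 units in PC3 control and 2569 in PC3 ATO (log2 ratio -0.93). It was at 0.027 in LNCaP (6479 and 7079 units). DDIT4, an inhibitor of mTOR complex activity that responds to stress, was the highest regulator in PC3 at 2.23 (458 and 2081 units), and was at 0.66 in LNCaP (2483 and 4192 units). MXD1, a partner of MAX that opposes MYC, was at 1.82 in PC3 and 0.66 in LNCaP, and LARP4 was the lowest regulator in LNCaP at -0.43. These lists were chosen with results of these data known, and no list was tested against another.

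Scaled to the 75th percentile, the lines differed from each other much more than with ATO. In the control arrays PC3 was below LNCaP for 69 of the 77 members and above it for 8, with a median log2 ratio of -0.64, where the median over all 15237 genes compared was -0.047. At 2-fold, 0 members were higher in PC3 and 19 (24.7%) lower, where 20.6% and 19.0% of all genes were, so the share of members called lower lay near the background while 0 were called higher. The difference exceeded 2 standard errors of the error model for 57 members, 55 of them lower and 2 higher in PC3. Genes past this limit were not counted over the whole array, so the count does not set the members apart from other genes. In bulk RNA, a smaller amount of a transcript per cell and a smaller share of the labelled RNA cannot be told apart. The size of the difference depended on the scaling, and the share of calls did so strongly: 46 members were 2-fold lower with the 50th percentile, 3 with spike-in probes and 9 with quantile or cyclic loess normalization. The median of all genes moved too, to -0.49, 0.38, -0.085 (quantile) and 0.049 (cyclic loess). Shares of all genes called are not given for these scalings, so the counts do not set the members apart. With spike-in probes the median of the members was -0.13 between the lines, no farther from 0 than the 0.15 with ATO in LNCaP. The median of the members stayed below 0 and below the median of all genes under each of these scalings, and 49 of the 77 members were below 0 under these, the 75th percentile and normexp alike.

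**Figure D4:**
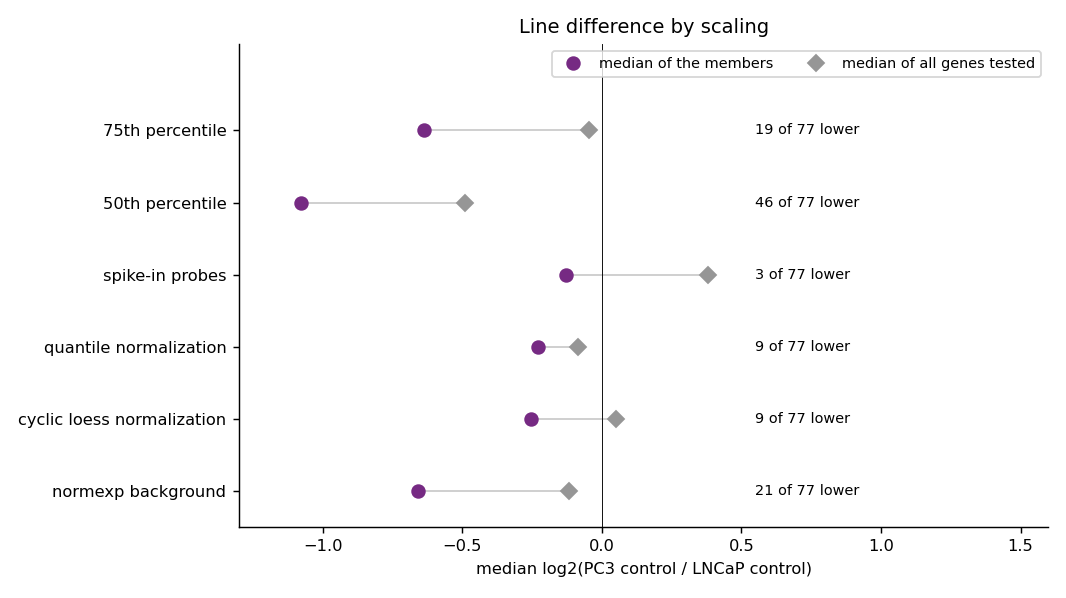
Median log2(PC3 control / LNCaP control) of the 77 members (purple) and of all genes tested (grey) under 6 ways to scale the arrays, with the number of members at least 2-fold lower in PC3. The members lie below all genes in each, by 0.14 with quantile normalization and by 0.59 with the 50th percentile.

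Within the small subunit the median line difference in the control arrays was -0.60, with 28 members below 0 and 7 called lower. RPS15A was the lowest of all members, at 98477 and 106782 units in LNCaP (control, then ATO) and 37919 and 39075 units in PC3, which made it 3.08-fold lower in PC3 control (log2 ratio -1.62). Its 3 other probes gave -1.72, -1.57 and -1.74. RPS3A read 76889, 77868, 30931 and 30987 units and was 2.94-fold lower. RPS6 was 2.42-fold lower (-1.28) and RPS18 2.51-fold lower. On these genes both PC3 arrays lay below both LNCaP arrays. At the other end RPS24 read 79600, 75650, 112723 and 116824 units, and was at 0.26, and RPS21 was at 0.16, but with the 50th percentile these were at -0.18 and -0.29. RPS19 and RPS27A were at 0.012 and -0.0097, and RPS3, RPS4X and RPSA at -0.18, -0.49 and -0.52.

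The large subunit had a median of -0.71 in the control arrays, with 41 of 46 members below 0 and 12 called lower. RPL23 read 103727 and 96561 units in LNCaP (control, then ATO) and 42322 and 44282 units in PC3, and was 2.90-fold lower in PC3 control (log2 ratio -1.54). RPL26 and RPL27 were each 2.84-fold lower, RPL17 and RPL34 2.75-fold, RPL4 2.64-fold, RPL7A 2.52-fold, RPL27A 2.38-fold, RPL23A 2.31-fold and RPL9 2.29-fold lower. RPS15A, RPS3A and RPL23 were the 3 members 2-fold lower under all 6 scalings. The other 2 members called lower were at -1.13 and -1.02. RPL22 was the highest member at 0.46 (5483, 7011, 8926 and 10373 units), and the 1 member above 0 under all 6 scalings, from 0.017 to 0.97, while its other probe was at 0.17. RPL8 was at 0.41 and RPL30 at 0.17, but with the 50th percentile they were at -0.034 and -0.27. Of the fixed members, RPL39 was at -0.57, RPL41 at -0.65, RPL13A at -0.60, RPL5 at -0.31, RPL11 at -0.29 and RPL10 at 0.028. In the stalk RPLP1 was at -0.92, RPLP2 at -0.49 and RPLP0 at -0.19, or -0.44 by the other probe of RPLP0, which was printed 10 times.

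The spread of the line difference among members, an SD of 0.498 in the control arrays, was found again in the arrays of ATO-treated cells. These are other arrays, and this comparison was added after the data had been seen. In PC3 ATO against LNCaP ATO, 0 members were 2-fold higher and 18 lower, against 17.9% and 21.4% of 14148 genes, with a median of -0.59. With the other scalings 7 to 29 were lower, with no share of all genes given beside them. In both conditions 17 members were called lower, which is 17 of 19 in the control arrays and 17 of 18 in the ATO arrays. The same overlap was not counted over all genes, so it does not set the members apart from them. Of the 77 members, 67 were below 0 in both conditions and 6 above 0 in both. Across members Pearson's coefficient between the conditions was 0.956 and Spearman's 0.956, for 77 genes read by the same probes in the same lines. The line difference in the ATO arrays minus that in the control arrays ranged from -0.52 (RPL27A) to 0.42 (RPS27A), with a median of 0.060.

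**Figure D5:**
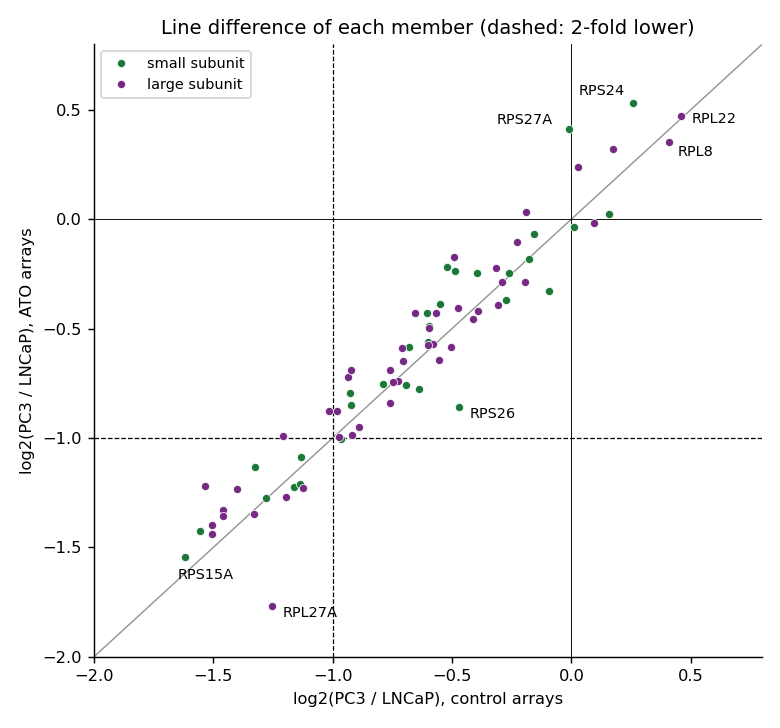
log2(PC3 / LNCaP) of each member in the control arrays (horizontal) and the ATO arrays (vertical), green for the small and purple for the large subunit, with 2-fold lower as dashed lines and equality as a grey line. Most members lie along the line of equality, from RPS15A near -1.6 to RPL22 near 0.5, and RPL27A, RPS26 and RPS27A lie farthest from it.

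The same difference was tested with limma over both conditions, in which the control and ATO arrays of a line served as its 2 arrays. At an adjusted p of 0.05, 46 of the 77 members were lower in PC3 and 0 were higher, against 32.6% lower and 25.6% higher of 13733 genes tested. The calls were 17 of 31 in the small and 29 of 46 in the large subunit. RPS15A had a difference of -1.58 with a 95% confidence interval of -1.99 to -1.17 and an adjusted p of 0.00499, and was lower in 2 of 2 conditions. RPL22, at 0.46 with an interval of 0.059 to 0.87, missed the threshold (adjusted p 0.0581). As the arrays of a line differ by treatment and not by culture, these p-values measure how stable the line difference was against ATO and the array, and not the spread between cultures. With spike-in scaling 18 were lower and 4 higher, with quantile normalization 25 and 4, with cyclic loess 24 and 4, and with an intensity trend 63 and 3. Of all 13733 genes tested, 7521, 8017, 7983 and 8730 passed in either direction, in the same order. That share was larger than among the members under all of these but the intensity trend. Without a filter on dim probes 10 members were lower and 0 higher, and 4518 of 27224 genes passed in either direction.

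Second probes of a gene mostly gave the same line difference. Of the 19 members called lower in the control arrays, 10 had another measured probe, and 18 of 18 such probes were below 0 in PC3, 17 of them past 2-fold. Over all 74 other measured probes the median gap to the chosen probe was 0.14, and 26 of them were past 2-fold lower. Some of these belonged to members whose chosen probe was not called, such as RPL13 (-1.26 against -0.73) and RPL35 (-1.24 against -0.97). RPL17 had probes at 59791, 29242 and 4658 units in LNCaP control, and these gave -1.46, -1.34 and -1.18, although the dimmest of them lies on another chromosome than the gene. Probes of 7 genes differed by more than 0.5, with the widest gap in RPL23A, where 3 probes were between -1.19 and -1.23 and the fourth at -2.64, and in RPS29, where 3 were between -0.14 and -0.29 and a dim probe was at -1.51. Ribosomal protein genes have many processed pseudogenes, and whether they or their transcripts were read was not tested. On the hg18 coordinates of the files, 3 of 152 member probes lie on another chromosome than the gene in RefSeq: 1 probe each of RPL17 and RPL21, and the chosen probe of RPL36A (chr11:16952784-16952843, where the gene lies on X).

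Among the paralogs that the naming rule left out, 3 differed between the lines by more than any member. RPL22L1, a paralog of RPL22, read 72446 and 75314 units in LNCaP (control, then ATO) and 8821 and 6347 units in PC3, a log2 ratio of -3.28 between the controls, while RPL22 itself was at 0.46. RPS27L read 26036, 27483, 6344 and 6838 units (-2.28), against -0.60 for RPS27. RPL39L was not well above background in LNCaP and read 3752 and 3498 units in PC3, at least 6.86 higher on the log2 scale, against -0.57 for RPL39. By limma the line difference of these paralogs had adjusted p-values of 0.00205, 0.00313 and 0.00295. With ATO none of the 8 paralogs was called (0 higher and 0 lower of 6 with a value in LNCaP and of 7 in PC3), and they ranged in PC3 from RPL26L1 at -0.43 to RPL36AL at 0.45. Mitochondrial ribosomal proteins also lay lower in PC3, at a median of -0.36 in the control arrays with 3 of 73 called higher and 11 lower. RNA polymerase I and biogenesis factors lay at 0.12 and -0.027. With spike-in scaling these 3 medians were 0.15, 0.63 and 0.48, all above 0, while that of the members was -0.13.

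The difference between members with and without a pyrimidine tract at the annotated start was not tested. The 46 members with a C and 4 or more pyrimidines at the start had median log2 ratios of -0.0068 with ATO in LNCaP, 0.052 in PC3 and -0.60 between the control arrays of the lines. The 16 without it had medians of 0.042, 0.047 and -0.83. Between the ATO arrays of the lines the medians were -0.57 with it and -0.90 without. Some of the 16 had a run of pyrimidines just after the start, such as RPL10A (9 bases) and RPL4 (12 bases). The groups therefore do not part members that have a tract from members that lack one. RPL26, with a tract of 12 bases, and RPL27, with none, were both 2.84-fold lower in PC3, and their windows are among those printed above. Place on the array moved little with the values: the 45 members in the lower part of the array had medians of -0.0070, 0.051 and -0.65, and the 32 in the upper part -0.0065, 0.020 and -0.62. The 29 members in bright local backgrounds had a median line difference of -0.75 and the 48 others -0.60.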

How the data were processed

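Total RNA of 4 samples was labelled and hybridised to 1-colour Agilent human gene expression arrays, 1 array per group. Linear spot intensities were deposited by the authors as Agilent Feature Extraction output, already background-subtracted. A second deposited table gives each probe as a ratio to the 75th percentile of its array and was used as an alternative. GeneSpring, named in the study's methods, was not rerun. Outlier spots were left out, copies of a probe were averaged as log2 intensities, and the 75th percentile over the probes of each array was subtracted. A gene was read from its brightest probe with unflagged spots on all 4 arrays. A probe counted as well above background if over 50% of its unflagged copies did. Ratios needed 1 of 2 arrays well above background, and a dim side was given as a bound. Calls were made at 1.5-fold for ATO and 2-fold between lines. Within a line there is no replicate and hence no p-value. A two-sided limma fit of line plus treatment (lmFit, eBayes, 1 residual degree of freedom) was adjusted by Benjamini-Hochberg over all genes tested, and was tested on simulated data. Alternatives were the 50th percentile, E1A spike-in probes, quantile and cyclic loess normalization, normexp (offset 50), the deposited table, the median over probes, outlier spots kept, bright local backgrounds left out (over the array median plus 3 scaled MADs), the upper part of the array (rows 1 to 266 of 532), other thresholds, no filter on dim probes and an intensity trend in limma. Bright probes had a 10.0% error per spot; a 1.5-fold ratio is 0.585 on the log2 scale against a standard error of 0.204. Named genes were a fixed set of 16 members, the 5 highest and 5 lowest members of each comparison, up to 15 called members per direction, the 3 brightest and 3 dimmest members and the extremes of each list in either line. Members named for disagreeing or misplaced probes, DKC1, NOP56 and RPS27L were named after their values were seen, and the comparison of PC3 ATO with LNCaP ATO was likewise added after the data had been seen. The members and lists were chosen with earlier results of these data known. Promoter sequences and gene names were from RefSeq (GRCh38.p14), where all 77 members matched a symbol. Probe coordinates were those of the files on hg18. R 4.3.3, limma 3.58.1, Python 3.11.15, numpy 2.4.6 and pandas 2.3.3 were used. The results of some named genes are not reported here.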

Additional observations from a re-analysis of the deposited data

How the results depend on the processing

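The absence of called members with ATO held under all alternatives tried at 1.5-fold, in both lines and both directions. At the lower fold tried, 1 member (RPL27A) was lower in PC3. The median of the members moved to 0.15 in LNCaP with spike-in scaling, where the median of all genes was also 0.15, and to 0.24 in PC3 with the 50th percentile, where that of all genes was 0.19. The line difference between control arrays kept its direction and not its size. Members at least 2-fold lower in PC3 numbered 46 with the 50th percentile, 3 with spike-in probes, 9 with quantile and 9 with cyclic loess normalization, 11 of 48 without bright local backgrounds and 6 of 32 in the upper part of the array, where fewer members were tested. At 1.5-fold there were 44 and at 4-fold 0. The median was -1.08, -0.13, -0.23 and -0.25 under the first 4 of these, and the median of all genes was -0.49, 0.38, -0.085 and 0.049. In the ATO arrays, members lower in PC3 numbered 29, 10, 8 and 7 under the same 4 scalings, with medians of -0.82, -0.32, -0.31 and -0.30. They numbered 10 of 48 without bright local backgrounds, 5 of 32 in the upper part, 40 at 1.5-fold and 0 at 4-fold. By limma, members that passed for the line difference numbered 22 with spike-in probes, 29 with quantile and 28 with cyclic loess normalization, of which 4 each were higher in PC3, 23 of 32 in the upper part of the array (1 higher) and 10 without a filter on dim probes (0 higher). Of all genes, 7521, 8017 and 7983 of 13733 passed under these scalings, a larger share than of the members. In the upper part 4226 of 6594 genes passed, and without the filter 4518 of 27224. Members were also higher with an intensity trend (3) and with normexp (1), where 0 were at the 75th percentile. The cause of these shifts was not tested. With 1 array per group, no paired test within a line was possible. The limma fit sets the arrays of a line side by side. Precision was limited by 1 array per group and, for 75 members, 1 spot per array, and by the low-gain scan on which 72 members rested.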
